A study of Homo sapiens with 10 samples.

Results

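The genes described here are 31 members of the antioxidant and detoxification programme controlled by the transcription factor NRF2 (gene NFE2L2), with the enzymes of glutathione, thioredoxin and NADPH metabolism that belong to it. They were chosen by symbol: a listed gene was read through the probe sets that the platform annotation assigns to it, and where it had several, the brightest of them by mean log2 over the 10 arrays stood for the gene. A probe set was found for 29 of the 31 genes, out of 19775 genes with a usable probe set. FTH1 and NR0B1 were not analysed here. The study measured total RNA of 2 human non-small-cell lung cancer lines, A549 and H1650, on Affymetrix U133 Plus 2.0 arrays, which read a gene through sets of short probes, with 5 arrays per line and 1 array per condition. The labels describe H1650 as EGFR mutant, and A549 is known to carry a mutated KEAP1.

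Cells of each line received an siRNA against ID1 (an inhibitor of basic helix-loop-helix transcription factors) or a control siRNA, were starved of serum for 48 h, and were then stimulated for 18 h. The 5 groups of A549, and likewise the 5 groups of H1650, were ID1 siRNA with EGF at 100 ng/ml, ID1 siRNA with nicotine at 1 µM, control siRNA with EGF at 100 ng/ml, control siRNA with nicotine at 1 µM, and control siRNA with no stimulus. ID1 siRNA without a stimulus was not among them. The lines differ in more than their NRF2 pathway, and each is 1 established line, so a difference between them is a difference between these 2 lines. The labels do not say that arrays came from separate cultures, and no condition was repeated within a line. The p-values below therefore measure only spread between these arrays, which may be technical in part. For the line difference, and for a stimulus against none, it is how far the line difference varied over the 5 conditions. For siRNA, and for EGF against nicotine, it is how far the effect of either factor varied over the other, pooled over both lines.

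NRF2 is kept low in unstressed cells by KEAP1, which hands it to a ubiquitin ligase for destruction; oxidants and electrophiles, or loss of KEAP1 function, free it. It then pairs with a small MAF protein and binds antioxidant response elements near its target genes. The targets make and recycle glutathione, reduce thioredoxins and peroxiredoxins, supply NADPH, conjugate and reduce reactive compounds, and handle haem and iron. In lung adenocarcinoma, mutation of KEAP1 is a known way in which the programme is held on.

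The deposited signals had been scaled to nearly equal trimmed means on all arrays. The median signal of the probe sets still ran from 61.2 to 78.5 in A549 and from 73.5 to 79.6 in H1650. In A549 it was 75.9 and 78.5 with ID1 siRNA (EGF, nicotine), above 61.2 and 65.2 with control siRNA and 66.1 without a stimulus. In H1650 it was 78.9 and 79.6 with ID1 siRNA, and 73.8, 79.3 and 73.5 in the same controls. The ID1 probe set read 1343 and 1343 in A549 with ID1 siRNA (EGF, nicotine), against 3049 and 3720 in A549 with control siRNA and the same stimuli and 1645 in unstimulated A549. It read 1031 and 881 in H1650 with ID1 siRNA (EGF, nicotine), against 5121 and 4964 with control siRNA and 5030 in unstimulated H1650. ID1 was thus lower by 56.0% and 63.9% in the EGF and nicotine pairs of A549 and by 79.9% and 82.3% in those of H1650, while the unstimulated A549 control lay close to the A549 arrays with ID1 siRNA. The 7 epithelial markers had summed signals of 73408 to 118220 in A549 and 107323 to 121791 in H1650, with 6 and 7 of them above the array median on all 5 arrays. KRT8, KRT18 and KRT7 were bright in both lines. A549 was lower in KRT19 (3542 to 6810 against 20183 to 21495), EPCAM (734 to 1520 against 12201 to 14055) and CDH1 (1122 to 2210 against 16807 to 19318). The junction gene CLDN7 was below the array median on all 5 A549 arrays. Of 5 lung lineage genes, 3 in A549 and 2 in H1650 were above the array median on all 5 arrays of the line, with summed signals of 432 to 619 in A549 and 407 to 646 in H1650. SFTPB and SFTPC were above it on all 10 arrays, and NKX2-1 and SCGB1A1 were below it on all 10. Summed signals of 4 blood markers were 211 to 324 in A549 and 245 to 340 in H1650, those of 3 endothelial markers 177 to 368 in A549 and 176 to 420 in H1650, and those of 4 fibroblast markers 413 to 1066 in A549 and 705 to 1172 in H1650. Their ranges overlapped between the lines. Genes above the array median on all 5 arrays of a line numbered 1 of 4 blood and 1 of 3 endothelial markers in either line, and 1 in A549 and 2 in H1650 of the 4 fibroblast markers. HBB, PECAM1 and COL1A1 were above it on all 10 arrays, while PTPRC and PDGFRA were below it on all 10.

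The antioxidant response element is a short motif with the core TGACNNNGC, often followed by A. RefSeq windows running from 250 bases before to 50 bases after the annotated transcript start were found for 25 of the 31 genes. The core TGACNNNGC followed by A, searched on both strands, lay in the window of 8 of these 25 genes (32.0%), against 3.94% of 27305 genes with such a window. The core with any next base lay in 11 of the 25 (44.0%), against 16.1% of the 27305. Stretches of 7 genes are shown because they let the motif be read directly in genes whose values follow. Each runs 5′ to 3′ on the strand of the gene, with the core followed by A in capitals, on RefSeq's GRCh38.p14. CBR1 lies at chr21:36069838-36069898 on the plus strand, EPHX1 at chr1:225825250-225825310 on the plus strand and GCLM at chr1:93909431-93909491 on the minus strand. GPX2 lies at chr14:64942834-64942894 on the minus strand, GSTP1 at chr11:67583720-67583780 on the plus strand, KEAP1 at chr19:10502772-10502829 on the minus strand and TXNRD1 at chr12:104286903-104286963 on the plus strand.
CBR1: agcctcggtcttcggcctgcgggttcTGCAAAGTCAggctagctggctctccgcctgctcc
EPHX1: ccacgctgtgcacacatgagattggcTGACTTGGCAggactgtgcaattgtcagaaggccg
GCLM: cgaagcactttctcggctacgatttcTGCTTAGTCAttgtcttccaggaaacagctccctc
GPX2: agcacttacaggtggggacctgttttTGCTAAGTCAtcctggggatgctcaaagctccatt
GSTP1: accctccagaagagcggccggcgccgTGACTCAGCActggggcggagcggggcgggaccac
KEAP1: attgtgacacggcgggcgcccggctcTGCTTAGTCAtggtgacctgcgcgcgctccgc
TXNRD1: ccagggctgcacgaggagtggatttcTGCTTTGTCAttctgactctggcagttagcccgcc
Relative to the transcript start, the first base of the capitals lies at -160 in CBR1, -78 in EPHX1, -35 in GCLM, -123 in GPX2, -66 in GSTP1, -32 in KEAP1 and -103 in TXNRD1. It reads forward in EPHX1 and GSTP1 and in reverse in the other five. The GSTP1 motif also contains TGACTCA, the AP-1 motif, so the letters belong to both. The KEAP1 stretch also holds, in lower case, a second match to the core at -54 that is not followed by A. KEAP1 and TXNRD1 have 1 further annotated start each and EPHX1 has 2, and those windows hold no core followed by A, although that of TXNRD1 holds 2 matches to the core with another next base. A match is a description of these letters and no measure of binding, and the windows cover the start of each gene only.

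In A549, nearly the whole programme was brighter than in H1650. Of the 29 genes, 26 were higher and 0 were lower at an adjusted p under 0.05 (limma's moderated test on all 10 arrays with line and condition as terms, Benjamini-Hochberg adjusted over 12514 genes), where 30.9% of all tested genes were called higher and 32.2% lower. Differences below are on the log2 scale, A549 minus H1650 unless stated, with limma's standard error after the ± sign. The median difference was 1.56 over the 29 genes and -0.03 over all tested genes. On 25 of the 29, each of the 5 A549 arrays was brighter than each of the 5 H1650 arrays, against 24.7% of all tested genes, and 26 were brighter in A549 in all 5 conditions. The exceptions are among the regulators and the weakest differences: KEAP1, NFE2L2 and GSTM4 were not called, and CBR3 was called with overlapping arrays. All 29 passed the filter on signal, GPX2 through its A549 arrays alone, so its call is in the count but adds no support. In bulk RNA, a lower signal cannot tell fewer cells expressing a gene from less RNA per cell.

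**Figure D1:**
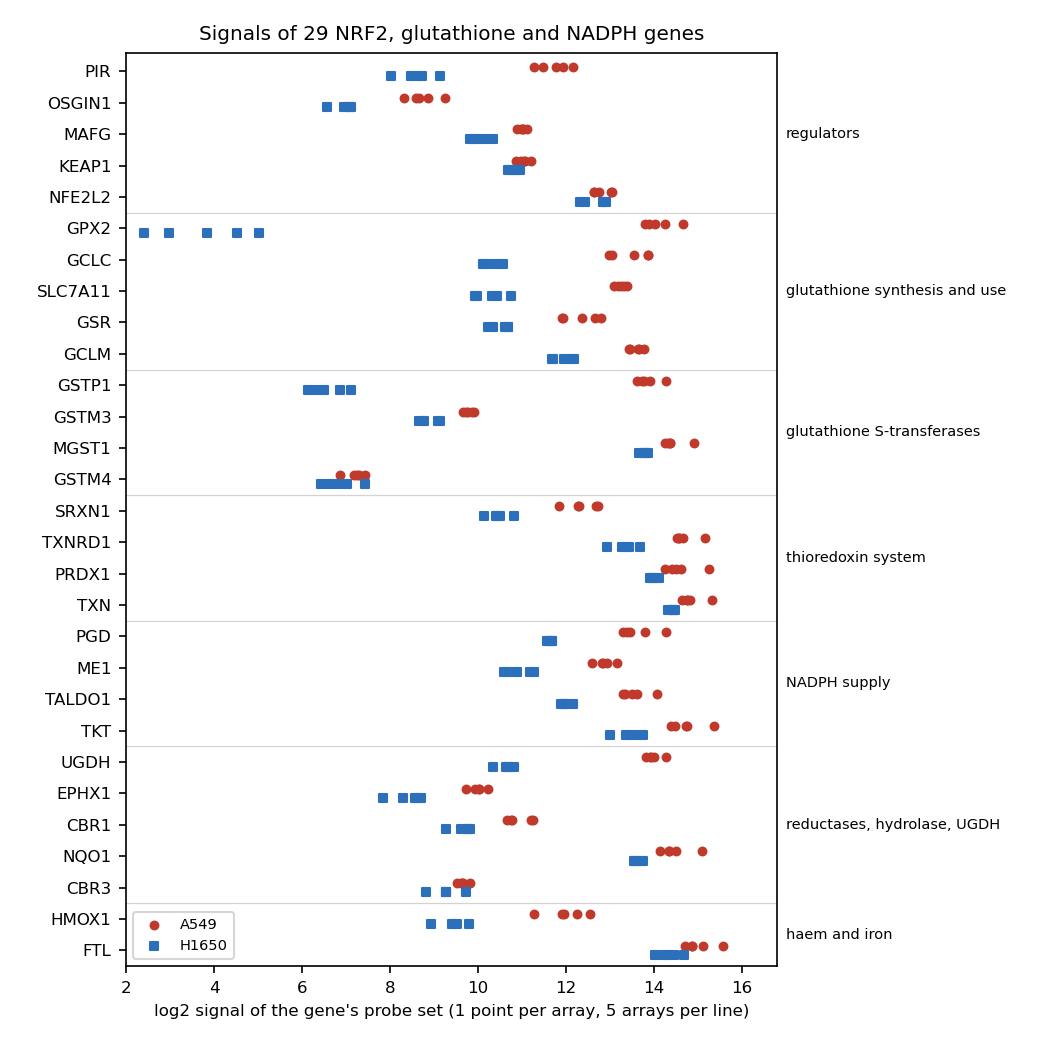
Log2 signal (x axis) of the probe set that stands for each of the 29 genes (y axis, grouped by role and ordered by difference within a role), with 5 A549 arrays as red circles above 5 H1650 arrays as blue squares and 1 point per array. The A549 points lie right of all H1650 points in 25 genes, and the lines overlap in NFE2L2, KEAP1, GSTM4 and CBR3.

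Of the 5 regulators, 3 were called higher in A549, while KEAP1 and NFE2L2 at the head of the pathway were not called. KEAP1, the repressor that marks NRF2 for destruction, read 2122 and 1871 in A549 with ID1 siRNA (EGF, nicotine), 2164 and 2380.1 in A549 with control siRNA (EGF, nicotine) and 2021 in unstimulated A549. It also read 1825 and 1856 in H1650 with ID1 siRNA (EGF, nicotine), 1647 and 1692 in H1650 with control siRNA (EGF, nicotine) and 1976 in unstimulated H1650. The lines overlapped, and the difference of 0.23 ± 0.10 was not called (adjusted p = 0.0785). NFE2L2, which encodes NRF2 itself, read 6401 and 6398 in A549 with ID1 siRNA (EGF, nicotine), 8450.5 and 8301 in A549 with control siRNA (EGF, nicotine) and 6889 in unstimulated A549. It read 5084 and 5558 in H1650 with ID1 siRNA (EGF, nicotine), 7756 and 7590.3 in H1650 with control siRNA (EGF, nicotine) and 7411 in unstimulated H1650. Its arrays overlapped between the lines as well (0.14 ± 0.09, adjusted p = 0.231). With each array centred on its median, both genes were called higher in A549. KEAP1 was also called higher without the replicate block, and NFE2L2 with the mean of all its probe sets. The KEAP1 and NFE2L2 probe sets measure RNA and show neither the KEAP1 mutation of A549 nor the amount of NRF2 protein.

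MAFG, a small MAF partner of NRF2, was higher in A549. It read 1894 and 2096 in A549 with ID1 siRNA (EGF, nicotine), 2078 and 2231 in A549 with control siRNA (EGF, nicotine) and 2028 in unstimulated A549, while its H1650 signals were 946 and 909.6 with ID1 siRNA (EGF, nicotine), 1302 and 1135 with control siRNA (EGF, nicotine) and 1028 without a stimulus. No H1650 array reached the lowest A549 array, and the difference was 0.97 ± 0.10 (adjusted p = 4.59e-05). PIR, an iron-binding nuclear protein and an NRF2 target, read 2469 and 2865 in A549 with ID1 siRNA (EGF, nicotine), 3515 and 4553 in A549 with control siRNA (EGF, nicotine) and 3902 in unstimulated A549. Its H1650 signals were 359 and 566 with ID1 siRNA (EGF, nicotine), 261 and 426 with control siRNA (EGF, nicotine) and 391 without a stimulus. The lines were far apart, with a difference of 3.12 ± 0.19 (adjusted p = 2.59e-06). OSGIN1, an oxidative stress induced growth inhibitor, read 318 and 384 in A549 with ID1 siRNA (EGF, nicotine), 406 and 608 in A549 with control siRNA (EGF, nicotine) and 464 in unstimulated A549. Its H1650 signals were 95.3 and 136 with ID1 siRNA (EGF, nicotine), 138 and 124 with control siRNA (EGF, nicotine) and 134 without a stimulus, all below the lowest A549 array, and it differed by 1.78 ± 0.17 (adjusted p = 2.59e-05).

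The 5 genes of glutathione synthesis and use were all called higher in A549, and their median difference was 2.97. GCLC, the catalytic subunit of the enzyme that sets the rate of glutathione synthesis, read 8476 and 8035 in A549 with ID1 siRNA (EGF, nicotine), 14892 and 14915 in A549 with control siRNA (EGF, nicotine) and 11975 in unstimulated A549. In H1650, GCLC read 1136 and 1117 with ID1 siRNA (EGF, nicotine), 1275 and 1512 with control siRNA (EGF, nicotine) and 1433 without a stimulus. Every A549 array was above every H1650 array, by ratios of 7.19 to 11.7 over the 5 conditions, and the difference was 3.13 ± 0.12 (adjusted p = 2.04e-07). GCLM, the modifier subunit of the same enzyme, read 11182 and 11129 in A549 with ID1 siRNA (EGF, nicotine), 14001 and 13062 in A549 with control siRNA (EGF, nicotine) and 12853 in unstimulated A549. In H1650, GCLM read 4675 and 4523 with ID1 siRNA (EGF, nicotine), 3965 and 3344 with control siRNA (EGF, nicotine) and 3281 without a stimulus. The lines did not overlap, and the difference was 1.66 ± 0.14 (adjusted p = 1.22e-05).

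SLC7A11, the transporter that imports cystine for glutathione, read 8766 and 9828 in A549 with ID1 siRNA (EGF, nicotine), 10245 and 9267 in A549 with control siRNA (EGF, nicotine) and 10660.3 in unstimulated A549. In H1650, SLC7A11 read 1374 and 1279 with ID1 siRNA (EGF, nicotine), 1718 and 981 with control siRNA (EGF, nicotine) and 1006 without a stimulus. It was higher in A549 in all 5 conditions, with ratios of 5.96 to 10.6 and a difference of 2.97 ± 0.13 (adjusted p = 4.95e-07). GSR, the reductase that regenerates glutathione with NADPH, read 3883 and 3932 in A549 with ID1 siRNA (EGF, nicotine), 6436 and 7082 in A549 with control siRNA (EGF, nicotine) and 5270.0 in unstimulated A549. In H1650, GSR read 1200.0 and 1299 with ID1 siRNA (EGF, nicotine), 1647 and 1569.8 with control siRNA (EGF, nicotine) and 1649 without a stimulus. The lines did not overlap (1.82 ± 0.11, adjusted p = 2.02e-06). GPX2, a glutathione peroxidase of epithelia and the gene with the largest difference in the list, read 15205 and 14300.3 in A549 with ID1 siRNA (EGF, nicotine), 25914 and 19667 in A549 with control siRNA (EGF, nicotine) and 16641 in unstimulated A549. In H1650, GPX2 read 14.2 and 7.85 with ID1 siRNA (EGF, nicotine), 5.30 and 22.9 with control siRNA (EGF, nicotine) and 32.7 without a stimulus, which was below the median of all probe sets on each of the 5 arrays. Such values have no order, and A549 was at least 233-fold higher when each H1650 array was taken at its own median signal. The measured difference of 10.38 ± 0.39 takes in these H1650 signals, so its call is not read as further support. A second GPX2 probe set gave a log2 difference of 5.15.

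Of the 4 glutathione S-transferases, 3 were called higher in A549. GSTP1, the pi-class enzyme of cytosolic conjugation, read 13634 and 12476 in A549 with ID1 siRNA (EGF, nicotine), 19692 and 15536 in A549 with control siRNA (EGF, nicotine) and 14131 in unstimulated A549. In H1650, GSTP1 read 117 and 70.1 with ID1 siRNA (EGF, nicotine), 78.9 and 139.7 with control siRNA (EGF, nicotine) and 90.6 without a stimulus, with 1 array below its median signal. A549 was 155-fold higher, a log2 difference of 7.28 ± 0.17 (adjusted p = 2.59e-08). The microsomal MGST1 ranged from 19572 to 31021 (median 20978) in A549 and from 12876 to 14849.6 (median 14213) in H1650, a difference of 0.66 ± 0.14 (adjusted p = 0.00292). GSTM3 ranged from 813 to 969 (median 882) in A549 and from 406 to 562 (median 441) in H1650 (0.91 ± 0.12, adjusted p = 0.000218), but a second, dimmer GSTM3 probe set gave -0.30. GSTM4 ranged from 117 to 172 (median 153) in A549 and from 86.1 to 173 (median 115) in H1650 and was not called (0.34 ± 0.21, adjusted p = 0.192). The mu-class genes are near copies of each other, and the GSTM4 probe set is of a type that can bind related transcripts, so its signal may be shared.

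All 4 genes of the thioredoxin system were called higher in A549. SRXN1, the sulfiredoxin that restores overoxidised peroxiredoxins, read 3703 and 4957 in A549 with ID1 siRNA (EGF, nicotine), 6840.2 and 6577 in A549 with control siRNA (EGF, nicotine) and 5032 in unstimulated A549. In H1650, SRXN1 read 1446 and 1136 with ID1 siRNA (EGF, nicotine), 1801 and 1357 with control siRNA (EGF, nicotine) and 1378 without a stimulus. Even the lowest A549 array was above the highest H1650 array, and the difference was 1.91 ± 0.13 (adjusted p = 5.07e-06). PRDX1, a peroxiredoxin that removes hydrogen peroxide, read 21799 and 19441 in A549 with ID1 siRNA (EGF, nicotine), 38838 and 25124 in A549 with control siRNA (EGF, nicotine) and 23196 in unstimulated A549. In H1650, PRDX1 read 17722 and 16286 with ID1 siRNA (EGF, nicotine), 15548 and 15501 with control siRNA (EGF, nicotine) and 16876 without a stimulus. The lines did not overlap but were close (0.61 ± 0.16, adjusted p = 0.0105), and the A549 control with EGF stood above the other four A549 arrays. TXNRD1, which reduces thioredoxin with NADPH, ranged from 23488 to 36694 (median 24442) in A549 and from 7829.6 to 13267 (median 10732) in H1650 (1.36 ± 0.11, adjusted p = 9.80e-06). TXN, the thioredoxin itself, ranged from 25375 to 40691 (median 27640.2) in A549 and from 20641 to 22897 (median 22194) in H1650 (0.43 ± 0.12, adjusted p = 0.0145), the smallest called difference after that of CBR3. Under quantile normalization the TXN difference was 0.08 and not called (adjusted p = 0.145).

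All 4 genes of NADPH supply were called higher in A549, and their median difference was 1.75. PGD, the second dehydrogenase of the oxidative pentose phosphate pathway, read 10719 and 10053 in A549 with ID1 siRNA (EGF, nicotine), 19895 and 14193 in A549 with control siRNA (EGF, nicotine) and 11181 in unstimulated A549. In H1650, PGD read 3096 and 3278 with ID1 siRNA (EGF, nicotine), 3309 and 3038 with control siRNA (EGF, nicotine) and 3165 without a stimulus. The H1650 signals were close together and all below the lowest A549 array (2.01 ± 0.14, adjusted p = 6.16e-06). TKT, the transketolase of the non-oxidative branch, read 22757 and 21629 in A549 with ID1 siRNA (EGF, nicotine), 42532 and 27425 in A549 with control siRNA (EGF, nicotine) and 27217 in unstimulated A549. In H1650, TKT read 11065 and 10521 with ID1 siRNA (EGF, nicotine), 8251 and 12559 with control siRNA (EGF, nicotine) and 13704 without a stimulus. The lines did not overlap (1.31 ± 0.20, adjusted p = 0.000533). TALDO1, the transaldolase of that branch, read 10394 and 10022 in A549 with ID1 siRNA (EGF, nicotine), 17093 and 12524 in A549 with control siRNA (EGF, nicotine) and 11571 in unstimulated A549. In H1650, TALDO1 read 4133 and 4051 with ID1 siRNA (EGF, nicotine), 3768 and 3971 with control siRNA (EGF, nicotine) and 4588 without a stimulus. It differed by 1.56 ± 0.14 (adjusted p = 2.16e-05), again without overlap. ME1, the cytosolic malic enzyme, read 7279 and 7341 in A549 with ID1 siRNA (EGF, nicotine), 6196 and 7793 in A549 with control siRNA (EGF, nicotine) and 9158 in unstimulated A549. In H1650, ME1 read 2478 and 2316 with ID1 siRNA (EGF, nicotine), 1911 and 1549 with control siRNA (EGF, nicotine) and 1644 without a stimulus. Its A549 signals were highest without a stimulus, and the lines differed by 1.94 ± 0.15 (adjusted p = 9.59e-06).

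All 5 reductases and detoxifying enzymes were called higher in A549, although NQO1, the quinone reductase most often used as an NRF2 readout, was bright in both lines. NQO1 read 20675 and 18111 in A549 with ID1 siRNA (EGF, nicotine), 34984 and 23392 in A549 with control siRNA (EGF, nicotine) and 20891 in unstimulated A549. In H1650, NQO1 read 12121 and 11909 with ID1 siRNA (EGF, nicotine), 12111 and 13709.6 with control siRNA (EGF, nicotine) and 13689 without a stimulus. The lines did not overlap, and the difference was 0.86 ± 0.15 (adjusted p = 0.00103). Other NQO1 probe sets gave larger differences of 1.25 and 1.50. UGDH, which makes UDP-glucuronate for conjugation, read 16544 and 15398 in A549 with ID1 siRNA (EGF, nicotine), 19840.0 and 14401 in A549 with control siRNA (EGF, nicotine) and 15683 in unstimulated A549. In H1650, UGDH read 1801 and 1611 with ID1 siRNA (EGF, nicotine), 1648 and 1298 with control siRNA (EGF, nicotine) and 1605 without a stimulus. A549 was 10.3-fold higher (3.36 ± 0.09, adjusted p = 4.71e-08). CBR1, a carbonyl reductase, read 1731 and 1608 in A549 with ID1 siRNA (EGF, nicotine), 2447 and 2358 in A549 with control siRNA (EGF, nicotine) and 1746 in unstimulated A549. In H1650, CBR1 read 622 and 911 with ID1 siRNA (EGF, nicotine), 788 and 876 with control siRNA (EGF, nicotine) and 875 without a stimulus. The lines did not overlap (1.27 ± 0.13, adjusted p = 5.50e-05). EPHX1, the microsomal epoxide hydrolase, ranged from 854 to 1192 (median 1039) in A549 and from 228 to 418 (median 380.1) in H1650 (1.58 ± 0.16, adjusted p = 3.82e-05). CBR3, a second carbonyl reductase, ranged from 734 to 901 (median 799) in A549 and from 453 to 844 (median 619.6) in H1650, with overlap. Its difference of 0.37 ± 0.14 (adjusted p = 0.0449) was called under 9 of 19 alternative settings.

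HMOX1, the haem oxygenase that opens the haem ring, read 3873 and 4914 in A549 with ID1 siRNA (EGF, nicotine), 2477 and 3969 in A549 with control siRNA (EGF, nicotine) and 6008 in unstimulated A549. In H1650, HMOX1 read 734 and 886 with ID1 siRNA (EGF, nicotine), 490.2 and 716 with control siRNA (EGF, nicotine) and 680.4 without a stimulus. Every A549 array was above every H1650 array (2.56 ± 0.13, adjusted p = 8.73e-07). FTL, the ferritin light chain that stores iron, ranged from 26969 to 48554 (median 29932) in A549 and from 16785 to 26253 (median 19907) in H1650, a difference of 0.69 ± 0.18 (adjusted p = 0.00912).

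**Figure D2:**
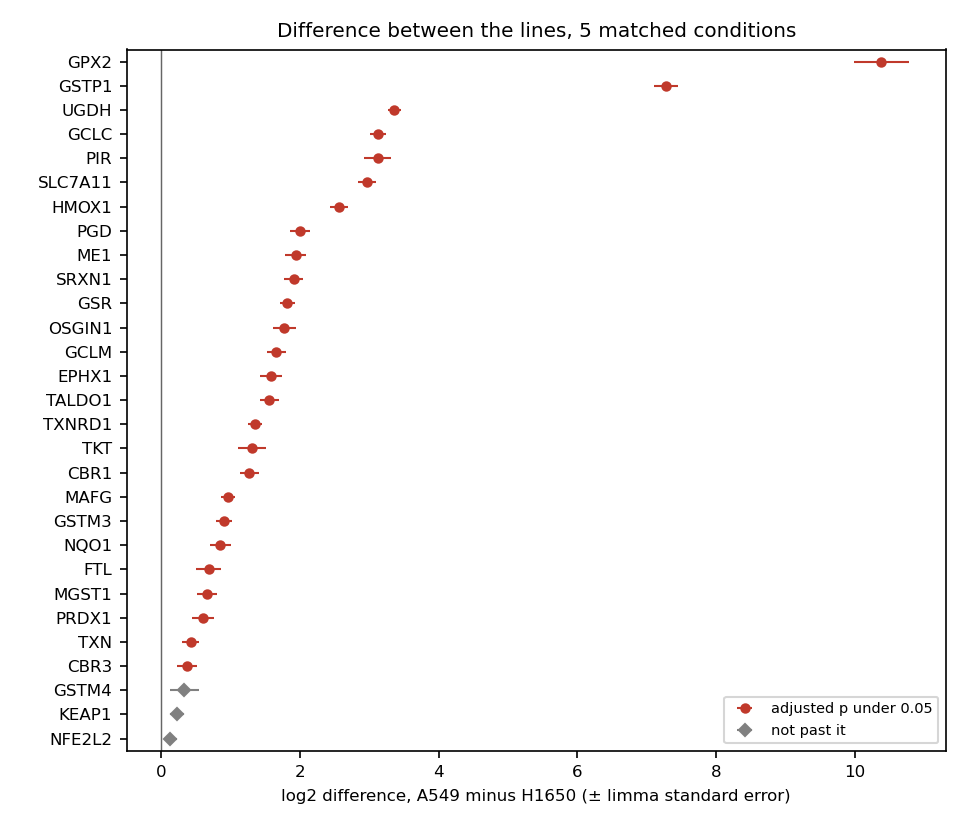
Log2 difference between A549 and H1650 (x axis) for the 29 genes (y axis) with limma's standard error as bars, red circles for called genes and grey diamonds for the 3 that were not. GPX2 is drawn at its measured 10.38 although its H1650 signals have no order, and KEAP1 and NFE2L2 lie next to 0.

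The 29 genes have 57 probe sets in all, and of the 21 further ones above the filter, 20 were higher in A549. Where a further probe set above the filter differed from the one used in sign or by more than 1 on the log2 scale, the A549 minus H1650 values were 5.15 for GPX2, -0.30 for GSTM3, 3.71 for MAFG, 1.21 for NFE2L2 and 1.72 for SLC7A11. Dimmer ones below the filter gave -0.07 for ME1, 0.83 and -0.47 for PGD and 0.28 for TXNRD1. All of these were dimmer than the probe set used, and their signals were not tested.

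Other genes around the pathway came from lists chosen with earlier results known, and SQSTM1, GLRX, BLVRA and BLVRB stand in more than 1 list. Of 29 tested NRF2 targets outside the 29 genes above, 20 were higher in A549 and 2 lower. The aldehyde dehydrogenase ALDH3A1 was at least 269-fold higher in A549 and AKR1C3, an aldo-keto reductase, at least 338-fold higher. Both were below the array median on all H1650 arrays. They passed the filter on signal through their A549 arrays alone, so their calls are in the count but add no support. AKR1C2 ranged from 19345 to 32832 in A549 and from 31.3 to 116 in H1650, where 4 of the 5 arrays were below the array median, so the size of its log2 difference of 8.73 ± 0.31 is uncertain. AKR1C1 differed by 7.56 ± 0.24, with 1 H1650 array below its median. The AKR1C genes are near-identical and their probe sets may share signal. GSTA1 (-1.19 ± 0.24) and ETFDH (-0.67 ± 0.15) were lower. Among 17 regulators of KEAP1 and NRF2, 4 were higher, led by the autophagy receptor SQSTM1 (1.67 ± 0.15), which is itself an NRF2 target, and 4 were lower, led by the small MAF gene MAFF (-1.40 ± 0.20).

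Of 28 further glutathione genes, 10 were higher, led by the glutaredoxin GLRX (3.21 ± 0.12), and 10 lower, among them GSTO2 (-3.63 ± 0.15) and the glutathione synthetase GSS (-1.29 ± 0.09). Of 18 further thioredoxin, peroxiredoxin and redox genes, 9 were higher and 5 lower. They included the quinone reductase NQO2 (2.34 ± 0.16) and the thioredoxin inhibitor TXNIP (-3.60 ± 0.25). Of 19 further NADPH genes, 8 were higher, led by the mitochondrial transhydrogenase NNT (2.22 ± 0.18), and 6 lower, led by the NAD kinase NADK (-1.89 ± 0.09). Of 14 further iron and haem genes, 6 were higher, and 6 lower, led by HMOX2 (-1.76 ± 0.12). The iron exporter SLC40A1 ranged from 833 to 1928 in A549 and from 37.0 to 126 in H1650, where 4 of the 5 arrays were below the array median, so the size of its difference of 4.50 ± 0.17 is uncertain. Against the 30.9% of all tested genes called higher and 32.2% lower, the counts for glutathione, NADPH and iron and haem genes lay near the background for lists of this size and are not read as a result about them. Median log2 differences were 1.67 for the other targets, 0.03 for the regulators, 0.00 for glutathione, 0.26 for redox, -0.05 for NADPH and -0.04 for iron and haem genes.

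Next, ID1 siRNA was compared with control siRNA within each line, over the EGF pair and the nicotine pair. In A549, 11 of the 29 genes fell and 1 rose at an adjusted p under 0.05 (limma on the 8 stimulated arrays, with line, siRNA within line and stimulus within line as terms), where 11.4% of all tested genes were called lower and 13.8% higher. The genes that fell were GCLC, GSR, PGD, SRXN1, TKT, PRDX1, PIR, NQO1, CBR1, TALDO1 and NFE2L2, and the gene that rose was HMOX1. The median log2 change was -0.38 over the 29 genes and 0.05 over all tested genes. Both A549 pairs moved alike in most members: 22 of the 29 were lower with ID1 siRNA in both pairs and 3 higher in both, against 33.7% and 41.2% of all tested genes. In 17 of the 29, both arrays with ID1 siRNA were below all 3 control arrays, unstimulated control included, against 18.7% of all tested genes.

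**Figure D3:**
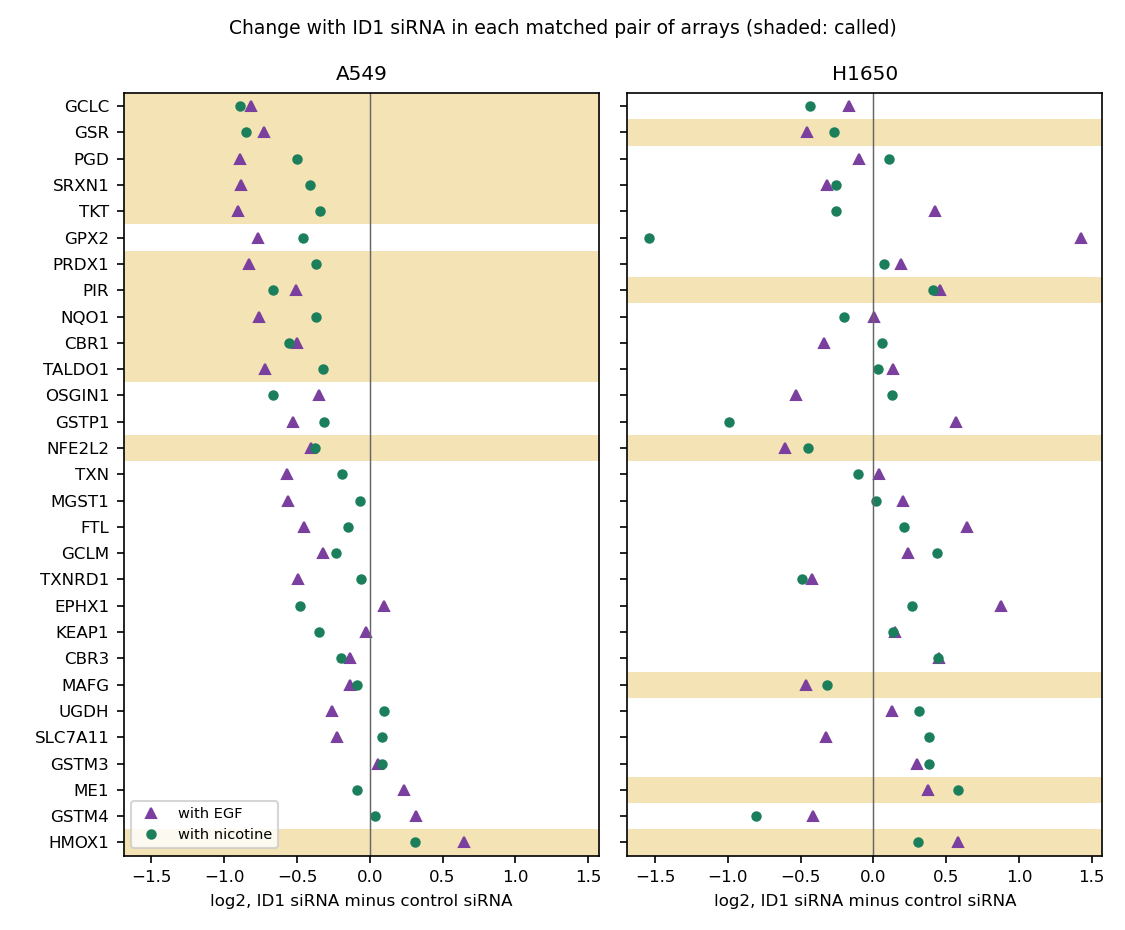
Log2 signal with ID1 siRNA minus control siRNA (x axis) for the 29 genes (y axis) in A549 (left) and H1650 (right), with the EGF pair as triangles, the nicotine pair as circles and called genes shaded. In A549, 22 genes lie left of 0 in both pairs, while in H1650 7 lie left of 0 in both pairs and 13 right of it. The GPX2 points of H1650 come from signals below the array median.

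The A549 change also moved with brightness. Among all tested genes with a mean log2 signal of 14 or more in the 4 stimulated A549 arrays, the median log2 change was -0.35, with -0.57 in the EGF pair and -0.15 in the nicotine pair. Between 13 and 14 the median was -0.33, whereas below 10 it was 0.18. Of all tested genes, 4.15% were called lower below 10, 17.1% between 10 and 12, 32.8% between 12 and 13, 37.1% between 13 and 14 and 15.8% at 14 or more. Members called lower in these bands were 0 of 5, 2 of 5, 3 of 4, 3 of 6 and 3 of 9, so the share of 11.4% over all tested genes is low for most of them. In H1650 the medians of these bands ran between -0.02 and 0.07. The A549 control array with EGF had the brightest upper end, with a maximum of 56869 against 34674 to 46205 on the other four A549 arrays. The part of this trend in the falls of the bright genes TKT, PRDX1, NQO1 and PGD was not tested. Beside the median of its own band, the change of GCLC (-0.85) lay below -0.33, that of GSR (-0.79) below -0.20 and that of PIR (-0.59) below -0.02, while 3 of the 9 members with a log2 signal of 14 or more were called and their median of -0.38 lay near the band's -0.35. Without either array of the A549 EGF pair, 4 of the 29 fell (GCLC, GSR, PGD and PIR) and 0 rose. Under quantile normalization 7 fell, and with each array centred on its median 22 fell and 0 rose, with the median of all tested genes at -0.24.

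**Figure D4:**
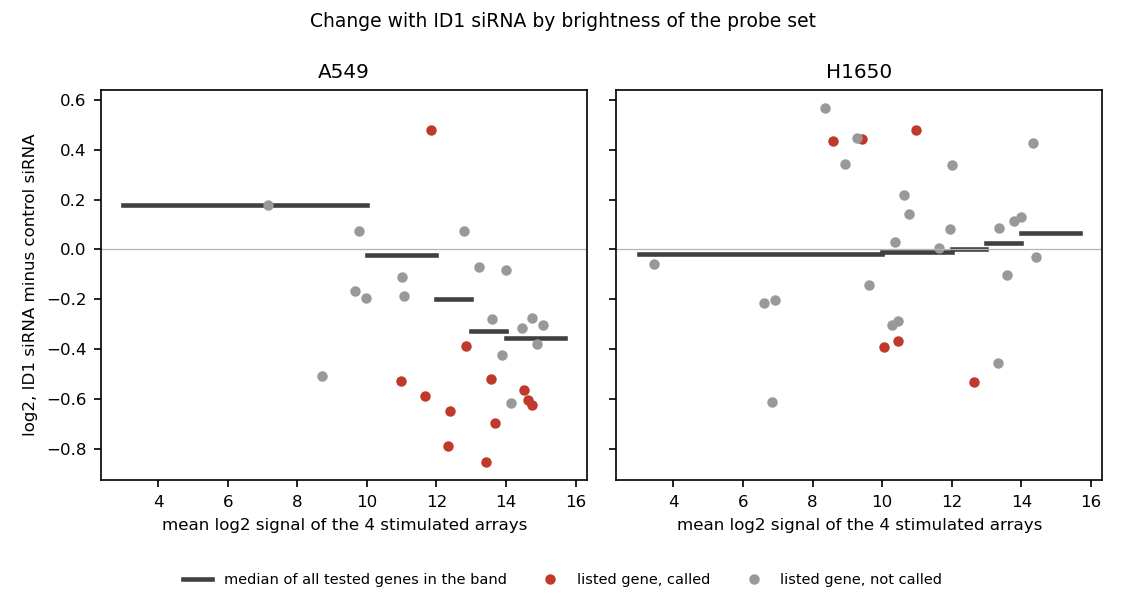
Log2 change with ID1 siRNA (y axis) against mean log2 signal of the 4 stimulated arrays (x axis) in A549 (left) and H1650 (right), with called genes of the list in red, the others in grey and horizontal bars for the median of all tested genes in each band of signal. In A549 the bars step down to -0.35 at the bright end and GCLC, GSR and PIR lie below the bars of their bands, while in H1650 the bars stay near 0.

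Among the glutathione genes, GCLC and GSR fell in A549 under the main setting and all 16 alternatives. GCLC with ID1 siRNA stood at 0.569 (EGF) and 0.539 (nicotine) of its A549 control signal and fell by 0.85 ± 0.10 on the log2 scale (adjusted p = 0.000852). GSR stood at 0.603 (EGF) and 0.555 (nicotine) of its control and fell by 0.79 ± 0.10 on the log2 scale (adjusted p = 0.000990). For both, the arrays with ID1 siRNA were the lowest of the 5 A549 arrays, and a second probe set of each gave -0.53 and -0.42. GCLM, the partner subunit, changed by -0.28 ± 0.11 and was not called (adjusted p = 0.0952). SLC7A11 (-0.07 ± 0.16, adjusted p = 0.788) and GPX2 (-0.61 ± 0.53, adjusted p = 0.435) were not called either. The standard error pools the spread of both lines, and the GPX2 pairs of H1650, from signals below the array median, changed by 1.43 (EGF) and -1.54 (nicotine). The GPX2 pairs of A549 changed by -0.77 (EGF) and -0.46 (nicotine), and its arrays with ID1 siRNA were the lowest of the 5 A549 arrays. None of the 4 transferases was called, with changes between -0.42 ± 0.29 for GSTP1 and 0.18 ± 0.30 for GSTM4.

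Of the regulators, NFE2L2 stood at 0.757 (EGF) and 0.771 (nicotine) of its A549 control signal and fell by 0.39 ± 0.11 on the log2 scale (adjusted p = 0.0278), a call kept under 5 of 16 alternatives. Its 2 dimmer probe sets gave -0.38 and 0.44. PIR stood at 0.703 (EGF) and 0.629 (nicotine) and fell by 0.59 ± 0.11 on the log2 scale (adjusted p = 0.00562). Both arrays with ID1 siRNA were below all 3 control arrays of A549 for either gene. KEAP1 (-0.19 ± 0.11), MAFG (-0.11 ± 0.10) and OSGIN1 (-0.51 ± 0.25) were not called, with adjusted p = 0.240, 0.458 and 0.172.

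In the thioredoxin system, SRXN1 stood at 0.541 (EGF) and 0.754 (nicotine) of its A549 control signal and fell by 0.65 ± 0.12 on the log2 scale (adjusted p = 0.00644). PRDX1 stood at 0.561 (EGF) and 0.774 (nicotine) and fell by 0.60 ± 0.16 on the log2 scale (adjusted p = 0.0261). The EGF pair carried the larger part of both changes. The call was kept under 13 of 16 alternatives for SRXN1 and 8 for PRDX1, whose change under quantile normalization was -0.21. TXN (-0.38 ± 0.16) and TXNRD1 (-0.28 ± 0.15) were not called.

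In NADPH supply, the 3 pentose phosphate enzymes were called lower and the malic enzyme was not called, but the size of these falls depended on the setting. PGD stood at 0.539 (EGF) and 0.708 (nicotine) of its A549 control signal and fell by 0.69 ± 0.13 on the log2 scale (adjusted p = 0.00512). The PGD call was kept under 14 of 16 alternatives, and with the mean of all its probe sets the change was -0.01. TKT stood at 0.535 (EGF) and 0.789 (nicotine) and fell by 0.62 ± 0.20 on the log2 scale (adjusted p = 0.0497), next to the threshold. The TKT call was kept under 6 of 16 alternatives and lost under quantile normalization, with a change of -0.26. TALDO1 stood at 0.608 (EGF) and 0.800 (nicotine) and fell by 0.52 ± 0.12 on the log2 scale (adjusted p = 0.0166). Its call was kept under 12 of 16 and lost under quantile normalization, with a change of -0.22. All 3 genes were farther below control in the EGF pair, in which the control array had the brightest upper end of the A549 arrays. ME1 changed by 0.07 ± 0.11 (adjusted p = 0.679), with opposite directions in the pairs.

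Among the detoxifying enzymes, NQO1 stood at 0.591 (EGF) and 0.774 (nicotine) of its A549 control signal and fell by 0.56 ± 0.15 on the log2 scale (adjusted p = 0.0263). The NQO1 call was kept under 7 of 16 alternatives and lost under quantile normalization, with a change of -0.18. CBR1 stood at 0.707 (EGF) and 0.682 (nicotine) and fell by 0.53 ± 0.12 on the log2 scale (adjusted p = 0.0155), nearly alike in both pairs. UGDH, CBR3 and EPHX1 were not called and changed by -0.08 ± 0.12, -0.17 ± 0.13 and -0.19 ± 0.20. HMOX1 was the one gene that rose, at 1.56 (EGF) and 1.24 (nicotine) of its A549 control signal and a change of 0.48 ± 0.12 (adjusted p = 0.0223). Its arrays with ID1 siRNA, at 3873 and 4914, were nevertheless below the unstimulated A549 control at 6008. FTL changed by -0.30 ± 0.18 and was not called (adjusted p = 0.245).

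**Figure D5:**
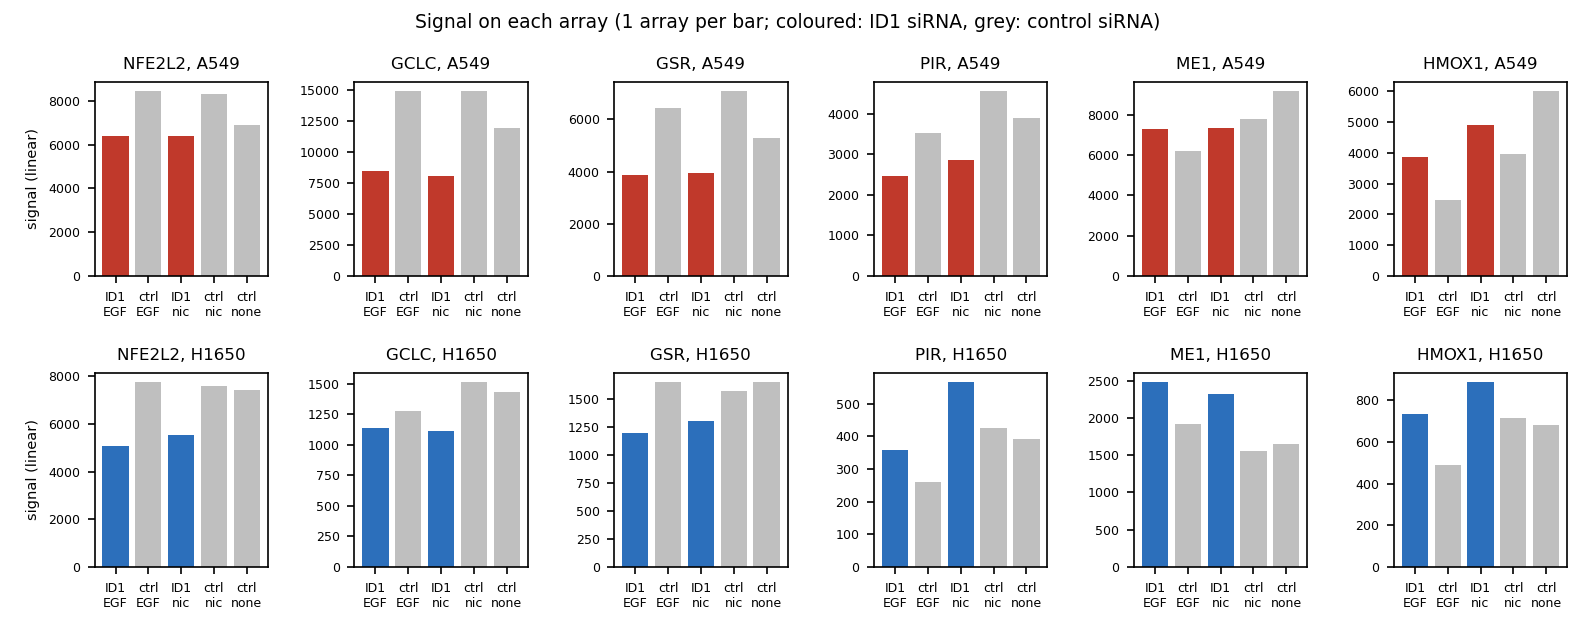
Linear signal (y axis, from 0) on each of the 5 A549 arrays (top, red for ID1 siRNA) and 5 H1650 arrays (bottom, blue for ID1 siRNA), with control siRNA in grey, for NFE2L2, GCLC, GSR, PIR, ME1 and HMOX1. Each bar is 1 array and has no error. ID1 siRNA bars of PIR stand below the matching control in A549 and above it in H1650, and HMOX1 is higher with ID1 siRNA in each stimulated pair but highest without a stimulus in A549.

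In H1650, where ID1 siRNA lowered the ID1 signal further, 3 of the 29 genes rose and 3 fell, against 5.64% of all tested genes called higher and 6.66% lower. For a list of 29 genes such small counts lie near the background and are not read as a result about the list. The median log2 change was 0.03 over the 29 genes and -0.01 over all tested genes. PIR stood at 1.38 (EGF) and 1.33 (nicotine) of its H1650 control signal, a change of 0.44 ± 0.11 (adjusted p = 0.0346). ME1 stood at 1.30 (EGF) and 1.50 (nicotine), a change of 0.48 ± 0.11 (adjusted p = 0.0285). HMOX1 stood at 1.50 (EGF) and 1.24 (nicotine), a change of 0.44 ± 0.12 (adjusted p = 0.0474). For ME1 and HMOX1 both arrays with ID1 siRNA were above all 3 H1650 controls, whereas 1 PIR array with ID1 siRNA, that with EGF, was below the unstimulated control. Both arrays lay above all 3 controls in 6 of the 29 genes and 21.5% of all tested genes, so this order is near the background and is not read as a result.

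NFE2L2 stood at 0.656 (EGF) and 0.732 (nicotine) of its H1650 control signal and fell by 0.53 ± 0.11 on the log2 scale (adjusted p = 0.0144). The mean over its 3 probe sets turned the direction, to 0.11. MAFG stood at 0.727 (EGF) and 0.802 (nicotine) and fell by 0.39 ± 0.10 on the log2 scale (adjusted p = 0.0397). GSR stood at 0.729 (EGF) and 0.827 (nicotine) and fell by 0.36 ± 0.10 on the log2 scale (adjusted p = 0.0463). In all 3 genes both arrays with ID1 siRNA were below all 3 H1650 controls. This held for 6 of the 29 genes and 23.9% of all tested genes. The order is thus near the background and is not read as a result. Without the intensity trend in limma's moderation, 0 members were called in H1650, with 1 called gene among all tested. Without the H1650 EGF pair, ME1 rose and GPX2 and GSTP1 fell, and without the H1650 nicotine pair EPHX1, GPX2, GSTP1 and HMOX1 rose and 0 fell, so the falls of NFE2L2, MAFG and GSR were lost without either pair. The GPX2 calls among these are of signals below the array median. With the mean of all probe sets of a gene, GCLC and TKT were called higher and MAFG lower in H1650, and PIR, ME1 and HMOX1 were no longer called. PIR and HMOX1 have 1 probe set each, so their changes stayed the same, and that of ME1 was larger, at 1.11. The loss of these calls therefore says nothing against the direction of their changes. Of the remaining 23 genes, CBR3 (0.45 ± 0.13, adjusted p = 0.0519), GCLM (0.34 ± 0.11, adjusted p = 0.0807) and TXNRD1 (-0.46 ± 0.15, adjusted p = 0.0837) had the smallest adjusted p without being called.

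The change with ID1 siRNA was then tested for a difference between the lines. It was lower in A549 than in H1650 for 4 of the 29 genes and higher for 0, against 4.92% and 6.98% of all tested genes. PIR differed most, with a change in A549 minus that in H1650 of -1.02 ± 0.15 (adjusted p = 0.00447); it fell in A549 and rose in H1650 in both pairs. PGD differed by -0.70 ± 0.18 (adjusted p = 0.0375), having fallen in A549 with a change of 0.01 ± 0.13 in H1650. GCLM differed by -0.61 ± 0.15 (adjusted p = 0.0363) although its changes of -0.28 ± 0.11 in A549 and 0.34 ± 0.11 in H1650 were not called within either line. GCLC differed by -0.55 ± 0.15 (adjusted p = 0.0460), with a lower signal under ID1 siRNA in both lines by the probe set used. In H1650 the GCLC probe sets disagreed, with changes of -0.30 (the one used), -0.13 and, from one below the filter, 2.15. Under quantile normalization PIR alone of these 4 was still called, while centring on the array median gave 15 lower. Without the A549 EGF pair or the H1650 EGF pair, 1 was lower. For GSR (-0.42 ± 0.14, adjusted p = 0.0879), NFE2L2 (0.14 ± 0.15, adjusted p = 0.576) and HMOX1 (0.03 ± 0.17, adjusted p = 0.924), which moved the same way in both lines, no difference between the lines was called.

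Further probe sets above the filter with another sign, or a value more than 1 away, gave siRNA changes in A549 of 0.44 for NFE2L2, 0.30 for MAFG, 0.24 for MGST1, 0.79 for TXN, 0.21 for TKT and 0.08 for SLC7A11. In H1650 they gave 0.04 and 0.81 for NFE2L2, -1.66 for MAFG, 0.77 for GPX2, -0.37 for GSTM3, 0.42 for TXN, 1.36 for TKT and -0.01 for SLC7A11. All were dimmer than the probe set used.

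Outside the 29 genes, transcription factors that share NRF2's binding sites were called with ID1 siRNA in both lines. Of 17 regulators, 6 rose in A549 and 3 fell. They included NFE2L3, an NRF2 relative (1.96 ± 0.16), BACH1, a repressor of HMOX1 and other targets (0.87 ± 0.12), and MAFF (0.86 ± 0.10), while the ligase genes FBXW11 (-0.83 ± 0.09), RBX1 (-0.57 ± 0.11) and CUL3 (-0.41 ± 0.10) fell. In H1650, 1 rose, NFE2L1 (0.63 ± 0.10), and 3 fell, FBXW11 (-0.93 ± 0.09), BACH1 (-0.79 ± 0.12) and NFE2L3 (-0.75 ± 0.16). The change of BACH1 in A549 minus that in H1650 was 1.67 ± 0.17 (adjusted p = 0.00061), and that of NFE2L3 was 2.70 ± 0.23 (adjusted p = 0.00024). Of 29 other NRF2 targets, 4 rose and 3 fell in A549, led by CES1 (1.97 ± 0.49) and ALDH3A1 (-1.15 ± 0.22), and 2 rose and 3 fell in H1650. CES1 ranged from 59.1 to 304 in A549, with 1 array below the array median, so the size of its change is uncertain. It was below the array median on all 5 H1650 arrays. Further glutathione genes gave 5 that rose and 8 that fell of 28 in A549 and 3 and 3 in H1650. The counts were 4 and 4 of 18 redox genes in A549 and 2 and 1 in H1650, 3 and 2 of 19 NADPH genes in A549 and 2 and 2 in H1650, and 3 and 1 of 14 iron and haem genes in A549 and 2 and 1 in H1650. Of all tested genes, 13.8% were called higher and 11.4% lower in A549 and 5.64% and 6.66% in H1650, and such small counts from short lists are not read against it as results about the lists.

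No member was called between stimuli. For EGF minus nicotine, 0 of the 29 passed in A549 and 0 in H1650, against 0.032% and 0.216% of all tested genes, with 8 and 6 members and 1198 and 1341 genes at an unadjusted p under 0.05 by limma. The nearest was PIR in H1650, whose signal was 359 with EGF and 566 with nicotine under ID1 siRNA, and 261 with EGF and 426 with nicotine under control siRNA. EGF gave the lower signal in both pairs, with a difference of -0.68 ± 0.11 (adjusted p = 0.0647). HMOX1 was also lower with EGF than with nicotine in each of the 4 pairs, by -0.51 ± 0.12 in A549 (adjusted p = 0.402) and -0.41 ± 0.12 in H1650 (adjusted p = 0.269).

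The unstimulated arrays exist with control siRNA only, 1 per line, so stimuli were compared with no stimulus over both lines together. With nicotine minus none, 0 of the 29 were called (0.0% of all tested genes), with 0 members and 189 genes at an unadjusted p under 0.05 by limma. With EGF minus none, 0 were called (0.0% of all tested genes), with 2 members and 747 genes at an unadjusted p under 0.05. HMOX1 in A549 controls read 6008 without a stimulus, 3969 with nicotine and 2477 with EGF. In H1650 controls it read 680 without a stimulus, 716 with nicotine and 490 with EGF. It was lowest with EGF in both lines, and EGF minus none was -0.88 ± 0.20 (adjusted p = 0.799). TXNRD1, the other member at an unadjusted p under 0.05, gave 0.45 ± 0.17 (adjusted p = 0.831). Of the 29 genes, 21 were brighter with EGF and 22 with nicotine than without a stimulus in A549, and 12 with EGF and 14 with nicotine in H1650, with medians of 0.31, 0.14, -0.14 and -0.01 on the log2 scale. Of all tested genes, 52.6% were dimmer with EGF and 47.8% with nicotine in A549, and 54.3% and 51.4% in H1650, with medians of -0.03, 0.02, -0.03 and -0.01. Each comparison is of 1 array with 1 array, and the A549 control with EGF had the brightest upper end, so these counts are not read as an effect of a stimulus.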

How the data were processed

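Total RNA of A549 and H1650 was labelled and hybridised to Affymetrix U133 Plus 2.0 arrays, with 1 array per line and condition (10 in all). The deposited values are signal intensities on a linear scale, which the authors produced in GCOS 1.4 by the MAS5 method, per the submitters' processing notes. Their 2% trimmed mean is close to 500 on each array. Although a log2 step is mentioned in the labels, the deposited intensities are not logged, and log2 was taken here. Of 54675 probe sets, 62 controls and 1801 with several symbols were set aside, and 41091 had 1 symbol in GEO's platform annotation (41037 matched to RefSeq by Entrez identifier). The brightest probe set by mean log2 stood for each of 19775 genes, and 12514 with a mean log2 of at least 6.06 (signal 66.7, the median of all probe sets) were tested. No detection calls were used: "below the array median" is the rule for a dim probe set, and the number of arrays, not a depth, limits the precision.

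Limma 3.58.1 in R 4.3.3 (moderated tests with intensity trend, Benjamini-Hochberg adjustment over all tested genes, called at an adjusted p under 0.05) was fitted to all 10 arrays with line and condition (4 residual degrees of freedom) and to the 8 stimulated arrays with line, siRNA within line and stimulus within line (2 residual degrees of freedom). The second fit equals a block for each matched pair, and the pairing comes from line and stimulus in the labels. Alternatives were quantile normalization, centring on the array median, 16 added before log2, no filter and a stricter one, averaged probe sets, no trend, no block, control arrays only, and leaving out each array. Leaving out either array of a matched pair gives the same estimate, and an array of the other line leaves a change within a line as it was. Counts of alternatives are therefore not counts of independent checks. The fits were tested on simulated data. Bands of signal were added after the data were seen.

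The members and the other gene lists were chosen with earlier results of these data known. Values on every array are given for KEAP1, NFE2L2, MAFG, each member called with siRNA or stimulus and the 12 with the largest difference between lines. Of other lists, at most 4 genes per direction with the largest called changes are named. Promoter windows are RefSeq's, GRCh38.p14.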

Additional observations from a re-analysis of the deposited data

Results flagged for a closer look

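For 4 genes the test of the difference between lines itself passed: the change with ID1 siRNA in A549 minus that in H1650 was -1.02 ± 0.15 for PIR, -0.70 ± 0.18 for PGD, -0.61 ± 0.15 for GCLM and -0.55 ± 0.15 for GCLC on the log2 scale (limma, adjusted p = 0.00447, 0.0375, 0.0363 and 0.046). PIR fell in both A549 pairs and rose in both H1650 pairs, and its difference was called under 14 of 16 alternatives, between -1.26 and -0.94. GCLC was called under 6, GCLM under 5 and PGD under 5 of the 16. The 16 are not independent, since leaving out either array of a pair gives the same estimate. With the A549 EGF pair left out, 1 of the 29 genes was called, and with the A549 nicotine pair left out, 9 were. The trend of the A549 change with brightness, given above, moves with the results for the brighter genes GCLC, GCLM and PGD, and its part in them was not tested.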

How the results depend on the processing

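Higher signal in A549 was called for 25 to 29 of the 29 genes under all alternatives and for 0 lower, with 25 to 26 when 1 array was left out. The siRNA counts moved more, and the cause was not tested unless given. In A549, 11 fell and 1 rose; 7 fell under quantile normalization, 22 fell and 0 rose with centring, 3 and 0 without the trend, and 7 and 0 without the replicate block. In H1650, 3 rose and 3 fell, while 6 rose under quantile normalization and 5 with the stricter filter. In that line 0 rose and 1 fell without a filter, and 0 rose and 0 fell without the trend. Without the replicate block 0 rose and 1 fell. With the mean of all probe sets 2 rose (GCLC and TKT, not called before) and 1 fell, while NFE2L2 turned to 0.11. PIR, ME1 and HMOX1 lost their calls under that mean, although PIR and HMOX1 have 1 probe set each and ME1 changed by 1.11. For the difference between lines, 4 lower and 0 higher became 15 lower with centring, 1 without a filter, 0 without the trend and 0 without the replicate block, and 1 was higher under quantile normalization and with the mean of all probe sets. For EGF minus nicotine in H1650, 1 was lower, PIR, with centring, with 16 added and with the stricter filter. Leaving out 1 array gave 4 to 11 that fell and 0 to 1 that rose with ID1 siRNA in A549, 1 to 5 that rose and 0 to 4 that fell in H1650, 1 to 9 lower and 0 to 1 higher for their difference, 0 in either direction for EGF minus nicotine in A549, 0 to 2 higher and 0 to 3 lower in H1650, and 0 for nicotine or EGF minus none. The lowest A549 count, 4, came without either array of the EGF pair, and the lowest H1650 counts came without the EGF pair (1 rose, 2 fell) and without the nicotine pair (4 rose, 0 fell), since a pair with 1 array left adds nothing. Of 845 comparisons of 48 called member results with an alternative, 698 kept their call, 146 lost it and 1 reversed.

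Centring shifted the median of all genes by -0.29 for ID1 siRNA in A549, by -0.24 for the difference between lines in that effect and by 0.16 for A549 minus H1650. The A549 arrays with ID1 siRNA had higher median signals than the A549 controls, as given above. Relative to all genes, the members' median with ID1 siRNA in A549 was -0.43 as deposited and with centring and -0.16 under quantile normalization. Over all genes, called higher and lower numbered 1733 and 1428 for ID1 siRNA in A549 (948 and 3966 with centring), 706 and 834 in H1650 (617 and 1128), 874 and 616 for their difference (623 and 1809), 3862 and 4031 for A549 minus H1650 (4577 and 3187), and 9 and 18 for EGF minus nicotine in H1650 (53 and 53). With 1 array per condition, 2 residual degrees of freedom support the siRNA tests, and dim probe sets such as GPX2 in H1650 give bounds only.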
